A study of Mus musculus with 6 samples.

Results

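The nuclear genes for subunits of the mitochondrial respiratory chain were followed in naive CD4 T cells with and without Trim28. The members were chosen by name, as genes whose symbol marks a structural subunit of complexes I to V or cytochrome c (Nduf, Sdh, Uqcr, Cox4 to Cox8, Cyc1, Cycs and Atp5 names), with assembly factors and pseudogenes left out. This gave 83 genes of the 16911 named in the table, of which 35 belong to complex I, 4 to complex II, 9 to complex III, 17 to complex IV and 17 to complex V, and 1 is cytochrome c. The cells came from C57BL/6 mice, 3 libraries from wild-type littermates (WT1 to WT3) and 3 from Trim28 KO mice (KO1 to KO3), and were enriched with magnetic beads, sorted by flow cytometry and lysed in Trizol without stimulation named in the labels. The sources used here name neither the promoter or Cre that removes Trim28, nor the age of the mice, nor whether each library came from its own mouse, so the tests measure the spread between these libraries. Values are normalized read counts, that is, read counts divided by a size factor for each library, recovered from a deposited log10 table.

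The respiratory chain sits in the inner mitochondrial membrane. Complexes I and II take electrons from NADH and succinate, complex III passes them to cytochrome c, complex IV hands them to oxygen, and complex V, the ATP synthase, uses the proton gradient that results. Most subunits are encoded in the nucleus, and a small core by mitochondrial DNA, which is not analysed here. Naive T cells are quiescent and draw most of their ATP from oxidative phosphorylation, and they enlarge their mitochondria when stimulated. The comparison asks whether the transcripts of this machinery differ in resting cells when Trim28, a corepressor brought to DNA by zinc finger proteins, is missing.

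Trim28 was at 8287 to 9428 normalized reads in the wild-type libraries and at 628 to 1247 in the knockout libraries, 9.99% of the wild-type mean. Depth ran from 22005759 to 44372701 reads, the deepest library being KO1. The naive CD4 T cell markers Cd3e, Cd3g, Cd4, Ccr7, Lef1, Tcf7 and Il7r were present in every library. KO3 stood apart in markers of other cells. Its summed B cell markers (4 genes of 5 in the table) were at 1422 against 169 to 315 in the other libraries, its NK cell markers (3 of 3) at 1152 against 121 to 223, its CD8 T cell markers (2 of 2) at 4416 against 561 to 1065, and its myeloid markers (5 of 5) at 452 against 35.2 to 215. Y-linked transcripts were abundant in WT1 and KO2 and at 0 to 2.39 in the other libraries. In such bulk samples, fewer cells of a type and less RNA per cell cannot be told apart.

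Promoter windows from RefSeq (GRCm38.p6, the assembly of mm10, from 250 bases before to 50 after the start) matched 68 of the 83 members by symbol. They were searched on both strands for the cores of 3 factors known to act at respiratory genes: NRF1 (a core of 10 letters, the capitals at the left of the Cox6a1 window), the ETS core bound by GABP (CCGGAAG) and YY1 (AAGATGGCG). The last 3 letters of the ETS core can overlap the first 3 of the YY1 core. The NRF1 core was in 5 members (7.35%, against 1.07% of 27025 genes in the same table), the ETS core in 17 (25.0% against 9.93%) and the YY1 core in 7 (10.3% against 1.64%). At least 1 of the 3 was in 26 members, 38.2% against 12.1%. The 27025 genes are all those with a window, whether expressed in these cells or not, and no share among expressed genes alone was taken. These are matches of letters, not measured sites. The windows that follow run over the 170 bases before the start, 5′ to 3′ on the gene's strand, and capitals mark motif letters. Uqcrh is shown as the member with the highest level per length, Cox6a1 because it held an NRF1 and an ETS core, and Atp5j because it held an ETS and a YY1 core. Sdha is shown as the tested member with the highest log2 fold change in the knockout, and its window held none of the 3. All 4 lie on the minus strand, at chr4:116075071-116075240 for Uqcrh, chr5:115348959-115349128 for Cox6a1, chr16:84834977-84835146 for Atp5j (1 of 2 listed starts) and chr13:74350241-74350410 for Sdha.
Uqcrh: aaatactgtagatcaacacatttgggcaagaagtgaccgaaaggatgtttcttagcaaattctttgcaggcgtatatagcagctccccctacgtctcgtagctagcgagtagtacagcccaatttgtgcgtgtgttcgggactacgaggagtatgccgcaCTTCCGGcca
Cox6a1: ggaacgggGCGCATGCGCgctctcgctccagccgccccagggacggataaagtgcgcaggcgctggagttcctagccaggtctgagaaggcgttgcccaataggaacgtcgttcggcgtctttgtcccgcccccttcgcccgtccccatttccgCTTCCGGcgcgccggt
Atp5j: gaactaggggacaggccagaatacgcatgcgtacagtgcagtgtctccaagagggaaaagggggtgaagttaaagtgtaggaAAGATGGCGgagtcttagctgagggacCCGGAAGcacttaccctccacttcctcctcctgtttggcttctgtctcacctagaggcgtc
Sdha: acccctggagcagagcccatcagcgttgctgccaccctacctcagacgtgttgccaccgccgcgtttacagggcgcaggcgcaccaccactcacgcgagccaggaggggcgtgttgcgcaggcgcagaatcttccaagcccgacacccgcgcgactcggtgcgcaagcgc

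Resting wild-type cells carried abundant transcripts for the chain. Together the 83 members took 0.816% of all normalized counts in WT1, 0.768% in WT2 and 0.789% in WT3. Levels of different genes are compared here per kilobase of transcript, with lengths of GENCODE M21 transcripts matched by RefSeq accession. Uqcrh, the hinge protein of complex III that contacts cytochrome c, led the order at 16342 ± 778 normalized reads per kilobase (SD, n = 3). Atp5b, the catalytic subunit of the ATP synthase head, followed at 12938 ± 220. Cox4i1, a nuclear-encoded subunit that joins complex IV early in its assembly, was at 11584 ± 357, and its range over the wild-type libraries overlapped that of the next member in the order. Of the 82 neighbouring pairs in the order, 71 overlapped in this way, so that only broad steps can be read from it.

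Complexes differed in their median level, but the ranges of their members overlapped widely. Members ran from 44.8 to 12938 normalized reads per kilobase in complex V and from 6.28 to 6948 in complex I. These values rest on the matched lengths, of which that of Atp5g1 is wrong, as described below. The median over members, low rows included, was 4791 normalized reads per kilobase in complex V and 4542 in complex IV, against 3154 in complex III, 2000 in complex I and 1993 in complex II. Complex I is the largest complex and its highest member was Ndufa6, an accessory subunit, at 6948 ± 682 per kilobase (SD, n = 3). In complex II, Sdhb, the iron-sulfur subunit, was highest at 2770 ± 104 and Sdhc, a membrane anchor, was lowest at 737 ± 11.6. Cycs, the soluble carrier between complexes III and IV, stood at 741 ± 25.7 per kilobase, next to Sdhc in the order and overlapping it. Its partner Cyc1, the haem-bearing cytochrome c1 of complex III, was at 1276 ± 74.0.

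**Figure D1:**
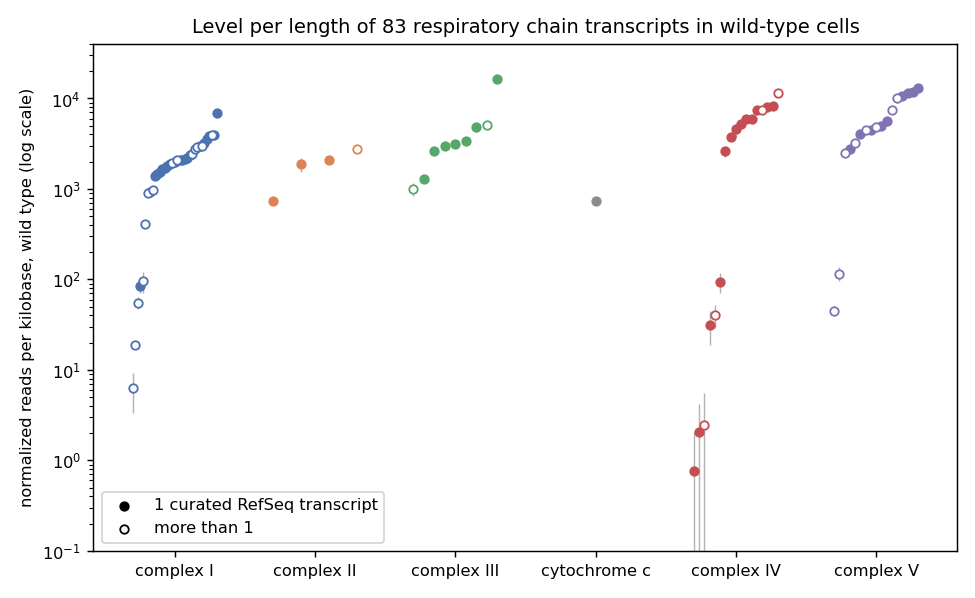
Wild-type level per length of the 83 members by complex, in normalized reads per kilobase on a log axis. Points are means and grey bars the SD of 3 libraries (a bar that would pass below 0 runs to the bottom of the axis); filled points are genes with 1 curated RefSeq transcript and open points genes with more than 1. The points run up to 16342 (Uqcrh), and a set of members in complexes I, IV and V lies well below the rest of its complex, down to Ndufs1 at 6.28 and Cox6a2 at 0.757.

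A small set of members read far below their partners in the same complex. These were chosen after their values were seen. Ndufs1, a core iron-sulfur subunit of complex I, had 22.3, 7.70 and 20.1 normalized reads in WT1, WT2 and WT3, and Ndufs8, another core iron-sulfur subunit, had 19.5, 18.7 and 17.8. Ndufv1, the core subunit that binds NADH, had 2685 to 2912. Ndufv2, also a core subunit, had 44.0 to 60.2, and Atp5c1, the central shaft of the ATP synthase, had 162 to 222 against 24455 to 25263 for Atp5b.

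Low readings occurred in genes with 1 and with several transcripts. Of 29 members with more than 1 curated RefSeq transcript (NM or NR accession) in the reference table, 9 had a wild-type mean under 500. These were Ndufs1, Ndufs8, Ndufv2, Ndufs6, Atp5c1, Atp5g1, Cox7a2l, Ndufa7 and the tissue isoform Cox6b2. The only row of Ndufs6 is a non-coding record (wild-type mean 50.9), so it need not give the level of the coding transcript. Of 54 members with 1 such transcript, 5 had a mean under 500, namely Ndufs5 and the tissue isoforms Cox7a1, Cox8b, Cox4i2 and Cox6a2. Under a mean of 100 the counts were 6 of 29 and 5 of 54. Among all tested genes, 57.9% with more than 1 curated transcript and 43.6% with 1 had a wild-type mean under 500. The 29 genes have 78 curated transcripts in the reference, and 34 of these had a row in the table used here. A row therefore measures a transcript record and not always a whole gene, and the sources used here do not say how reads shared between transcripts were counted. Its part in the low levels was not tested, and the medians by complex include these rows.

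Several complex IV subunits come as pairs, one found in most tissues and one made mainly in heart and skeletal muscle, lung or testis. In naive CD4 T cells nearly all reads of each pair fell on the row of the common form. Cox4i1 had 25090 reads over the wild-type libraries against 5 of Cox4i2, the lung form. Cox6a1 had 9923 against 2 of the muscle form Cox6a2, and Cox6b1 had 13241 against 4 of the testis form Cox6b2. The Cox6b2 row used is a non-coding record, 1 of 3 rows of a gene with 6 curated transcripts. Its other rows held 0 to 1.39 normalized reads, so the level of the whole gene is less certain. In the knockout the second forms had 6, 10 and 2 reads, and all 10 of Cox6a2 were in KO3. Cox6a2 was at 0 in WT1, which allows up to 4.18 normalized reads there (3 reads, counting error only). Within each pair the transcripts were of similar length, 745 and 727 bases for the Cox4i pair, 571 and 680 for Cox6a, and 618 and 553 for Cox6b. These 3 second forms were the members that did not reach the mean of 10 needed for testing.

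Cox7a1, the muscle partner of Cox7a2, was low but present. Wild-type levels were 26.5, 40.7 and 43.3 normalized reads, and knockout levels 42.1, 27.7 and 36.7. The groups overlapped, and per kilobase Cox7a1 stood at 93.7 ± 23.0 normalized reads in wild type against 5178 ± 418 for Cox7a2 (SD, n = 3). Cox8b, the muscle partner of Cox8a, was at 6.97, 11.0 and 16.2 in wild type and 29.3, 20.4 and 3.19 in KO1, KO2 and KO3, with the lowest and the highest value both in the knockout. Muscle markers were nearly absent, with a summed level of 5.71 to 18.9 over Ckm, Actc1 and Ttn.

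The c ring of the ATP synthase, which turns as protons pass, is built from 1 mature protein encoded by 3 genes. Per kilobase, the Atp5g3 row stood at 4791 ± 230 normalized reads in wild type and 4424 ± 333 in the knockout, and the Atp5g2 row at 2757 ± 69.9 and 2406 ± 588 (SD, n = 3). The Atp5g1 row stood at 44.8 ± 5.44 and 37.8 ± 6.88 per kilobase. The ranges of the groups overlapped in each of the 3. Atp5g1 has 2 rows, of which the larger is used. Its matched length was 4715 bases, against 731 for Atp5g2 and 714 for Atp5g3. That is longer than the whole gene (chromosome 11, 96072793 to 96075694), so the match is wrong and the level per kilobase of Atp5g1 is too low. The other Atp5g1 row has a length of 596 bases. Atp5g3 has 3 curated transcripts but 1 row. The order of the 3 rows therefore need not be that of the genes.

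No member of the chain was called between knockout and wild type. The fit was limma on log2(normalized read count + 1) over the 13022 rows with a mean of at least 10, with Benjamini-Hochberg adjustment over all of them and a threshold of 0.05 for a call. Of the 80 members tested, 0 were called, against 1.51% of all tested rows (1.19% higher and 0.315% lower in the knockout), and the smallest adjusted p among them was 0.243. At an unadjusted p under 0.05 there were 6 members (7.5%), against 12.7% of all rows. Of these, 5 were lower in the knockout (6.25% of members, against 5.84% of all rows) and 1 was higher (1.25%, against 6.84%). With voom weights on the recovered reads 0 members were called and 6 had an unadjusted p under 0.05. Without KO3 the count became 2, Cox8a at -0.47 and Atp5g2 at -0.41 on the log2 scale, where 4.3% of all rows were called and 1.55% were called as lower. In that fit 25 members had an unadjusted p under 0.05 (31.3%, against 21.2% of all rows), and 24 of these were lower in the knockout (24 of 80, against 9.53% of all rows).

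The members leaned low as a group, by a small amount. Of the 80, 73 had a log2 fold change below 0 (91.3%, against 49.6% of all tested rows), and the median was -0.14 against 0.0019 over all rows. All 3 knockout values lay below all 3 wild-type values in 13 members (16.3%, against 9.58% of all rows), and above them in 1, Ndufs8 (against 9.21%). Summed over members, the wild-type libraries held 266847, 250839 and 247492 normalized reads (replicates 1 to 3), and the knockout libraries 210524, 241818 and 251254. KO1 was the lowest of the 6 and KO3 lay above 2 of the wild-type libraries, so the sums overlapped. The knockout mean of this sum came to 92.0% of wild type, and 95.8% when each library was taken as a share of its total, where KO3 was the highest library at 0.856%.

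**Figure D2:**
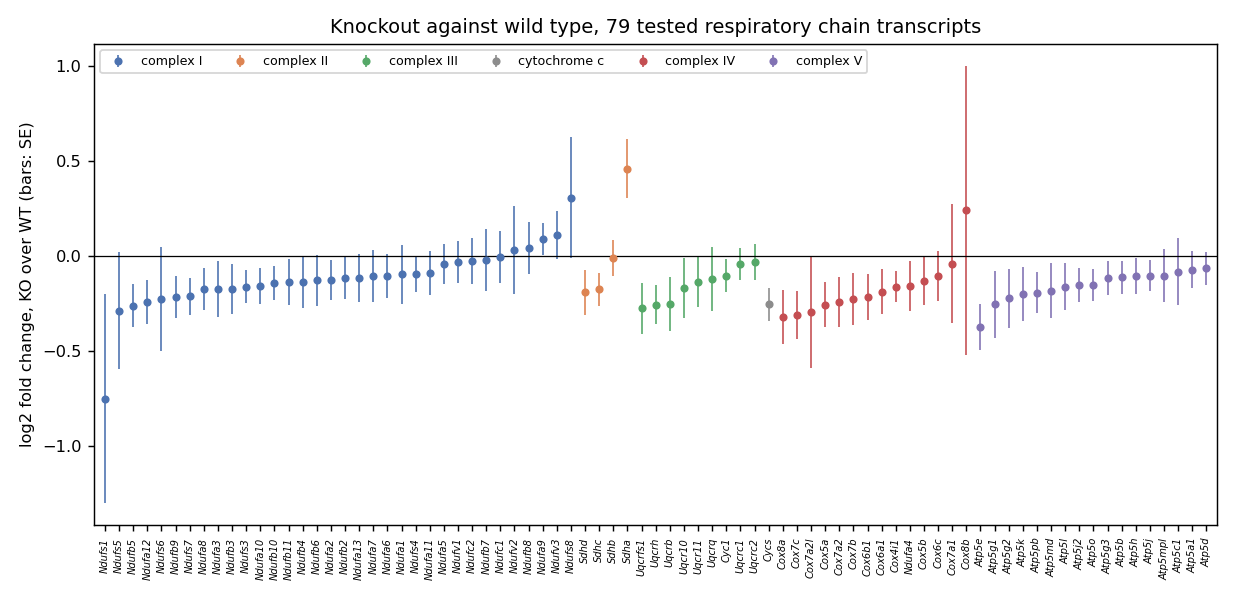
Log2 fold change of knockout over wild type for 79 of the 80 tested members, ordered within each complex, with bars for the SE of the limma fit (3 libraries a group). Points lie mostly between 0 and -0.37; Sdha at 0.46 is the highest, and the widest bars belong to members with few reads such as Cox8b and Ndufs1.

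The low values came mainly from 1 library. KO1 was the lowest of the 6 libraries in 65 of the 80 members (81.3%), against 21.4% of all tested rows. The median member lay 0.30 below the wild-type mean on the log2 scale in KO1 (median -0.30), against -0.09 in KO2 and -0.03 in KO3, and the medians of WT1, WT2 and WT3 were 0.07, -0.03 and -0.04. WT1 was the highest library in 48 members, for which the share among all rows is not given here. Without KO1 the members' median moved from -0.14 to -0.05, and 59 of 80 were below 0 (all rows: 49.9% below 0). KO2 and KO3 still lay below all wild-type values in 13 members, against 13.8% of all rows. Without WT1 it was -0.11 and without KO3 -0.20.

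**Figure D3:**
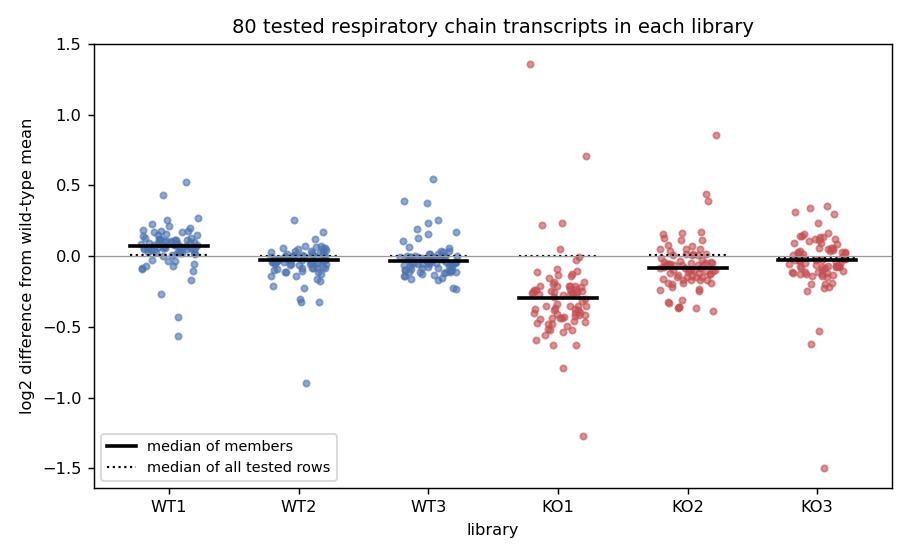
Each tested member's log2 difference from its wild-type mean in each library (80 points a library, spread sideways at random), with the members' median as a solid line and the median of all 13022 tested rows as a dotted line. In KO1 75 of 80 members lie below 0, while the median of all rows lies at -0.01 to 0.01 in every library.

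Short transcripts outside the chain were also lowest in KO1. Among rows with a wild-type mean of at least 500, the 46 members with transcripts under 1000 bases had a median of -0.36 in KO1, and the 359 other rows of that length -0.32. The 23 members of 1000 bases or more had -0.22 in KO1, against -0.02 for the 5611 other rows of that length. KO1 was the lowest library in 71.0% of the other short rows and in 24.3% of the other long rows. Over all libraries, 83.3% of the other short rows and 53.6% of the other long rows had a log2 fold change below 0, against 45 of 46 short members and 20 of 23 long members. Transcript length and library KO1 thus moved with the members' values, and their part in the result was not tested.

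**Figure D4:**
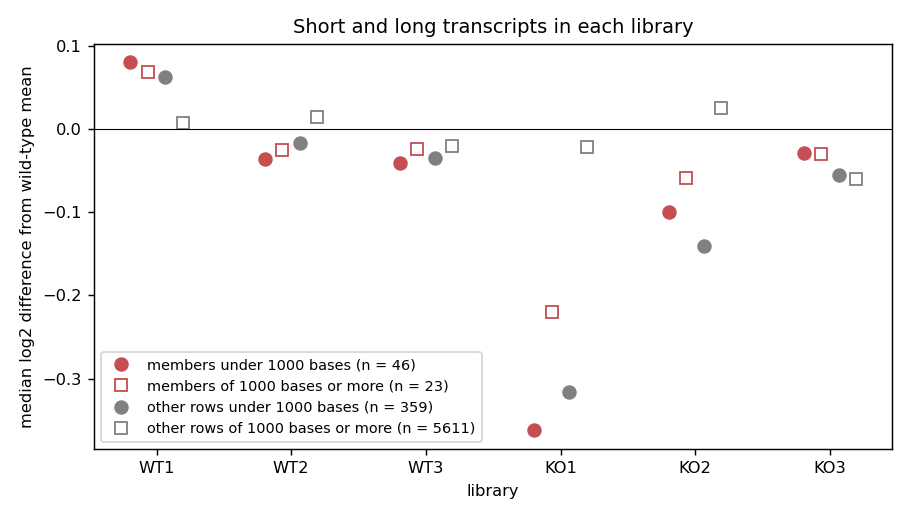
Median log2 difference from the wild-type mean in each library, for members (red) and other rows (grey), under 1000 bases (filled circles) and of 1000 bases or more (open squares), all with a wild-type mean of at least 500 normalized reads. In KO1 short members and other short rows lie together at -0.36 and -0.32, long members at -0.22, and other long rows at -0.02.

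Complex I takes electrons from NADH through its peripheral arm. Of its 35 members, 30 had a log2 fold change below 0 and 5 above, with a median of -0.11. The 7 core subunits of the arm ran from -0.75 for Ndufs1 (-0.49 without KO1 and -1.20 without WT2) to 0.31 for Ndufs8, both with few reads and neither called. Ndufs8 was the 1 member whose knockout values (22.1, 24.8 and 23.1) all lay above its wild-type values, at a log2 fold change of 0.31 (SE 0.32, adjusted p 0.736 in limma). Among the 12 accessory subunits of the B and C series, which sit in the membrane arm, KO1 was the lowest library in all 12. Ndufb5, one of these, lies on chromosome 3 (32737057 to 32751559). Its wild-type values were 2708, 2579 and 2465 and its knockout values 1849, 2438 and 2219, in replicate order. The groups did not overlap but WT3 and KO2 were close, and the log2 fold change was -0.26 (SE 0.11, adjusted p 0.393 in limma), or -0.15 without KO1.

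Complex II, succinate dehydrogenase, is shared by the chain and the citric acid cycle and was the one complex with a sum above wild type, at 111% of it. This came from Sdha, the flavoprotein that oxidises succinate (chromosome 13, 74322255 to 74350240). Sdha had 4466, 6420 and 5432 normalized reads in wild-type replicates 1 to 3, and 8788, 7308 and 6320 in the knockout replicates. KO1, the lowest library for most members, was the highest for Sdha, and KO3 lay just below WT2. The log2 fold change was 0.46 (SE 0.16, adjusted p 0.266 in limma), from 0.33 without WT1 to 0.59 without WT2, and it was not called in any of the 18 alternatives.

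The other 3 subunits of complex II did not follow Sdha. Sdhc was at 2377, 2327 and 2306 in wild type and 1940, 2074 and 2203 in the knockout, without overlap, at a log2 fold change of -0.18 (SE 0.09, adjusted p 0.458 in limma). Sdhd, the second membrane anchor, had -0.19 (SE 0.12; -0.07 without KO1 and -0.29 without KO3), and Sdhb had -0.01 (SE 0.10), which turned above 0 when libraries were scaled to their totals. The difference between Sdha and its partners was not tested.

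All 9 members of complex III had a log2 fold change below 0, with a median of -0.14. Uqcrh (chromosome 4, 116066965 to 116075070), whose promoter is shown above, was at 9276, 9081 and 8461 in wild type and 6551, 7823 and 8163 in the knockout. The groups did not overlap, with KO1 far lowest, and the log2 fold change was -0.26 (SE 0.10, adjusted p 0.342 in limma), or -0.16 without KO1. Uqcrfs1, the Rieske iron-sulfur protein, had -0.28 (SE 0.14), or -0.13 without KO1. Cyc1 had -0.10 (SE 0.09), or -0.07 without WT2. Uqcrq, a small subunit next to cytochrome b, had -0.12 (SE 0.17) and the sign was not stable to leaving out WT1 or KO1.

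Cytochrome c, which also triggers apoptosis when it leaves mitochondria, had the narrowest spread relative to its mean among the 6 members with an unadjusted p under 0.05. Cycs (chromosome 6, 50562563 to 50566569) was at 2405, 2253 and 2287 in wild type and 1815, 2031 and 1977 in the knockout. All knockout values were below all wild-type values, and KO2 and KO3 were low as well as KO1. The knockout mean was 83.9% of wild type, a log2 fold change of -0.25 (SE 0.09, adjusted p 0.263 in limma), and -0.21 without KO1. By exact permutation, two-sided, p was 0.1, and no smaller p can be reached with 3 libraries in each group.

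Complex IV, cytochrome c oxidase, had the lowest summed level relative to wild type of the 5 complexes, at 87.3%. The sums were 48096, 44878 and 43937 in wild type and 33942, 41533 and 44030 in the knockout, so the groups overlapped and KO1 was far lowest. As a share of each library's total the level was 91.1% of wild type, with KO3 the highest library. The 11 common subunits of complex IV all had log2 fold changes below 0, with a median of -0.22 and KO1 lowest in all 11. They include Ndufa4, which carries a complex I name but belongs to complex IV. Cox7c, a small membrane subunit (chromosome 13, 86044798 to 86046795), was at 4204, 4021 and 3718 in wild type and 2629, 3599 and 3481 in the knockout. The groups did not overlap, and the log2 fold change was -0.31 (SE 0.13, adjusted p 0.360 in limma), or -0.17 without KO1. Cox8a, another small membrane subunit, was at 4604, 4272 and 4329 in wild type and 2847, 3543 and 4326 in the knockout. Here KO3 was inside the wild-type range, and the log2 fold change was -0.32 (SE 0.14, adjusted p 0.400 in limma) with all libraries and -0.47 (adjusted p 0.0435 in limma) without KO3. Without KO1 it was -0.17.

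The remaining complex IV members gave smaller values. Cox4i1 had -0.16 (SE 0.08), Cox6a1 -0.19 (SE 0.12), Cox6b1 -0.22 (SE 0.12), Cox7a2 -0.24 (SE 0.13) and Cox7b -0.23 (SE 0.14) on the log2 scale. Without KO1 they were -0.12 for Cox4i1, -0.09 for Cox6a1, -0.09 for Cox6b1, -0.10 for Cox7a2 and -0.12 for Cox7b. Cox7b was -0.09 without WT1, and Cox6a1 was -0.31 without KO3. Cox7a2l is listed here as a factor for supercomplexes, in which complexes III and IV are joined. Whether its product joins them in the mouse strain used was not tested. The Cox7a2l row had 35.2 to 60.0 normalized reads in wild type and 30.3 to 39.3 in the knockout, in overlapping groups. The muscle forms Cox7a1 (-0.04, SE 0.31) and Cox8b (0.24, SE 0.76) were too sparse to place, and both changed sign between settings.

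All 17 members of complex V had log2 fold changes below 0, with a median of -0.15. Atp5e, the epsilon subunit at the foot of the head (chromosome 2, 174461075 to 174464101), had the smallest p of all members. It was at 5164, 4807 and 4394 in wild type and 3093, 4031 and 4019 in the knockout. The groups did not overlap, the knockout mean was 77.6% of wild type, and the log2 fold change was -0.37 (SE 0.12, adjusted p 0.243 in limma). Without KO1 it was -0.25. Its partners in the head differed less, Atp5b having -0.11 (SE 0.09), with 24653 in KO3 against 24455 in WT3.

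The c ring genes Atp5g1, Atp5g2 and Atp5g3 had log2 fold changes of -0.26 (SE 0.18), -0.22 (SE 0.16) and -0.12 (SE 0.09). Without KO1 these were -0.17, -0.09 and -0.05, and Atp5g1 was -0.40 without KO3 and -0.16 without WT3. Atp5g2 was at 1963, 2065 and 2018 in wild type, a narrow range, and at 1432, 1599 and 2245 in KO1, KO2 and KO3. KO3 was above every wild-type library and the other 2 below them. Without KO3 the log2 fold change was -0.41 (adjusted p 0.0470 in limma).

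**Figure D5:**
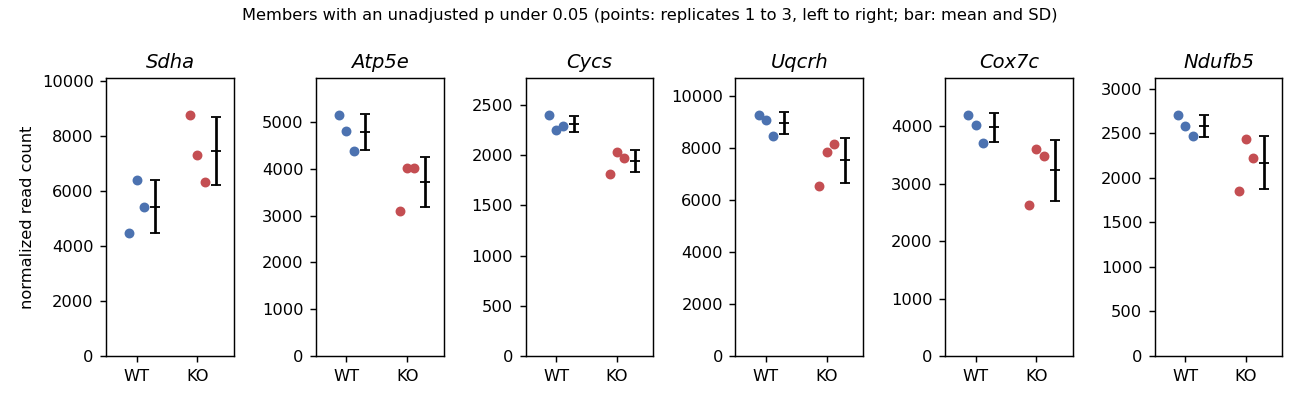
Normalized read counts of the 6 members with an unadjusted p under 0.05, for replicates 1 to 3 of wild type (blue) and knockout (red), with the mean and SD of 3 libraries as black bars and axes from 0. Sdha is higher in the knockout with WT2 and KO3 overlapping; in Atp5e, Cycs, Uqcrh, Cox7c and Ndufb5 each knockout value is below each wild-type value and KO1 is lowest.

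Genes that build and supply the chain were counted in 9 related lists, in which limma called 0 genes, against 1.51% of all tested rows. At that share, lists of 6 to 78 tested genes would each hold few calls or none. Of all tested rows, 49.6% had a log2 fold change below 0, 12.7% an unadjusted p under 0.05 and 21.4% their lowest value in KO1. Of 17 tested complex I assembly factors 10 had a log2 fold change below 0 (median -0.01), and of 33 assembly factors for complexes II to V 19 did (median -0.05). Ndufaf4, an assembly factor of complex I, was at 1763, 1725 and 1489 in wild type and 1071, 1300 and 1312 in the knockout, a log2 fold change of -0.44 (SE 0.12, adjusted p 0.153 in limma). Higd2a, which helps form supercomplexes, was at 1924, 1820 and 1900 and then 1279, 1333 and 1587, at -0.43 (SE 0.10, adjusted p 0.112 in limma). Without KO3 it was -0.53 (adjusted p 0.0173 in limma). Both sets of values were apart between the groups, and both had smaller p-values than any subunit. Ndufaf7, also an assembly factor of complex I, went the other way, with 540, 523 and 534 in wild type and 608, 705 and 621 in the knockout. Its groups did not overlap either, and the log2 fold change was 0.27 (SE 0.11, adjusted p 0.328 in limma).

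The mitochondrial ribosome translates the subunits encoded by mitochondrial DNA. Of 78 tested Mrpl and Mrps genes, 62 had log2 fold changes below 0 (median -0.09) and KO1 was the lowest library in 52 (all rows: 21.4%). Import and cristae genes gave 24 of 26 below 0 (median -0.13), with KO1 lowest in 19 (all rows: 49.6% below 0 and 21.4% lowest in KO1). Chchd3, a cristae organiser, had group means of 3965 and 3369 in wild type and knockout.

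The citric acid cycle and other dehydrogenases feed electrons to the chain. Of 18 citric acid cycle and pyruvate dehydrogenase genes, 13 were below 0 (median -0.04), and the 2 with an unadjusted p under 0.05 (all rows: 12.7%) were above 0. These were Mdh2, the malate dehydrogenase that follows succinate dehydrogenase and fumarase in the cycle (2071, 2827 and 2579 in wild type and 3702, 2929 and 2869 in the knockout), and Dld, the shared lipoamide dehydrogenase. Mdh2, like Sdha, was highest in KO1 and lowest in WT1, with a log2 fold change of 0.35 (SE 0.14, adjusted p 0.358 in limma). It was 0.23 without KO1 and 0.22 without WT1. The next genes by p were lower in the knockout, Idh3b at -0.24 (SE 0.11) and Suclg2 at -0.22 (SE 0.10). Of 20 genes for coenzyme Q synthesis and other electron donors, 15 were below 0 (median -0.06). The 1 with an unadjusted p under 0.05 (all rows: 12.7%) was above 0. It was Coq3, a methyltransferase of coenzyme Q synthesis, at 0.38 (SE 0.16, adjusted p 0.360 in limma). Gpd2 of the same list was lower in the knockout, at -0.50 (SE 0.22, adjusted p 0.395 in limma), with a smaller p than the next genes. Etfa and Etfb, the subunits of the electron transfer flavoprotein, had 0.36 (SE 0.17) and 0.46 (SE 0.24). Without KO3 Etfa was at 0.56 (adjusted p 0.0237 in limma).

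Genes that maintain and express mitochondrial DNA gave 11 of 16 below 0 (median -0.04). Polg, the catalytic subunit of the mitochondrial DNA polymerase, was at 7940, 6719 and 7695 in wild type and 6070, 5800 and 5719 in the knockout, at -0.34 (SE 0.09, adjusted p 0.149 in limma). Its accessory subunit Polg2 had -0.42 (SE 0.13, adjusted p 0.206 in limma), whereas Twnk, the helicase of the same machine, had 0.22 (SE 0.09, adjusted p 0.356 in limma). Of 12 tested regulators of mitochondrial gene expression, 7 were below 0 (median -0.03) and KO1 was lowest in 0 of them (all rows: 21.4%). Esrra had the smallest p among them, at -0.26 (SE 0.10, adjusted p 0.327 in limma). Gabpa, whose product binds the ETS core searched above, had 0.15 (SE 0.11), from 0.07 without KO2 to 0.23 without KO3, and Yy1 had -0.07 (SE 0.11), which turned above 0 without KO3. Of 6 tested carriers 3 were below 0, among them Slc25a3, the phosphate carrier that feeds ATP synthase, at -0.22 (SE 0.08, adjusted p 0.306 in limma).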

How the data were processed

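The authors deposited 1 table of 19048 rows by 6 libraries on a log10 scale. The tools STAR, HTSeq and DESeq2 and the build mm10 are listed, without version or role, per the submitters' processing notes. Turned back as 10 to the value minus 1, 100% of values above 0 were whole multiples of 1 step per library (within 0.01), which gives normalized read counts and reads. Rows carry RefSeq accessions, of which 18807 were named by a GRCm38.p6 table and 108 by GENCODE M21, and 133 (2.70% of counts) stayed unnamed. Each gene is given by its row of highest total.

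The test was limma 3.58.1 in R 4.3.3 with the empirical Bayes trend, all 6 libraries, no covariate, two-sided, checked on simulated data. edgeR and DESeq2 were not run, and the recovered reads entered a fit only through voom. The members, lists and rules were chosen with earlier results of these data known. Named members were Trim28, those with an unadjusted p under 0.05, the extremes of each complex, isoform families, members below the filter and up to 4 genes of each related list; others named were chosen after their values were seen. Some items are counted in the totals but not reported here by name.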

Additional observations from a re-analysis of the deposited data

How the results depend on the processing

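The fit was repeated under 18 other settings: voom weights, no mean-variance trend, pseudocounts of 0.5 and 8, no filter and a mean of at least 50, 3 other scalings, a replicate block, Y-linked transcripts as a covariate, each library left out, and rows summed per gene. In 17 of them 0 members were called. Leaving out 1 library gave 0 to 2 called members, the 2 being Cox8a and Atp5g2 without KO3 (Higd2a and Etfa of the related lists were also called there), a median over members between -0.20 and -0.05, and a summed level between 88.7% and 96.7% of wild type. Scaling to totals gave 64 of 80 members below 0 and a median of -0.08, with the median of all rows at 0.06. Restricted to the genes with 1 curated transcript, chosen after seeing the data, the summed level was 92.2% of wild type. The replicate block called 0 members, with a median of -0.14 and 4 at an unadjusted p under 0.05. The labels do not say whether shared numbers pair the libraries. The correlations of same-numbered deviations were -0.31, 0.26 and 0.36, and those of differently numbered libraries ran from -0.44 to 0.37. With 3 libraries in each group these values cannot show whether the libraries are paired. Over all settings 20 of the 80 members changed sign at least once, 16 of them without KO1, 9 with total scaling and 7 without WT1. Among named genes, with a library left out, Cox7a1 ran from -0.26 to 0.12, Cox8b from -0.32 to 1.11, Sdhb from -0.076 to 0.064, Uqcrq from -0.26 to 0.027, Hcfc1 from -0.074 to 0.40, Ucp2 from -0.027 to 0.30 and Yy1 from -0.15 to 0.039. With total scaling Cox7a1 was 0.013 and Sdhb 0.046, and with quantile normalization Cox8b was -0.039. The cause was not tested.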
